A study of Homo sapiens with 6 samples.

Results

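The genes that carry iron into the cell, store it and let it out again were followed in H460 lung carcinoma cells exposed to fluoxetine. The set holds 9 genes chosen by name for these roles, out of 31762 genes in the count table, and all 9 were counted in every library. They are TFRC, STEAP3 and SLC11A2 for uptake, FTH1 and FTL for storage, NCOA4 for release from storage, SLC40A1 for export, and IREB2 and ACO1 for control.

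H460 is a human cell line from a large cell carcinoma of the lung, here of wild-type (WT) genotype in all samples. The cells grew in RPMI-1640 medium with serum, and total RNA was sequenced from 3 control libraries and from 3 libraries of cells given 20 µM fluoxetine, an antidepressant that blocks serotonin reuptake, for 24 h. All samples come from this single line, and the labels do not say what the control cells received in place of the drug. They also do not say that the libraries of a group came from separate cultures, so the p-values measure the spread between libraries, which may be technical. The comparison asks which of these transcripts changed with the drug.

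Transferrin carries iron in the blood and enters cells by the transferrin receptor TFRC. In the endosome STEAP3 reduces the iron, and the transporter SLC11A2 (also called DMT1) moves it to the cytosol. Surplus iron is kept in ferritin, a shell of heavy chains (FTH1) and light chains (FTL), which NCOA4 delivers to the lysosome when iron is needed, and SLC40A1 (ferroportin) exports it. Iron regulatory proteins 1 (encoded by ACO1) and 2 (encoded by IREB2) bind stem-loops in messenger RNA, the iron-responsive elements, when iron is scarce. Bound before the coding sequence they hold back translation, and bound after it, as in TFRC, they protect the transcript. Proliferating tumour cells have a high demand for iron.

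The stem-loops are shown because they are the feature through which the iron regulatory proteins read these transcripts. GENCODE release 29 transcripts (GRCh38) were searched for an unpaired C, a stem of 5 base pairs and the loop CAGTGN, on the sense strand, with G-T pairs and at most 1 unpaired base in the second arm allowed. The 30 bases are printed 5′ to 3′ along the transcript, and the capitals mark the loop of 6 bases.
FTH1, 5′ UTR, chr11:61967573-61967602, minus strand: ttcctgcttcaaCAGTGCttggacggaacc
FTL, 5′ UTR, chr19:48965335-48965364, plus strand: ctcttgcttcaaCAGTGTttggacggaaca
SLC40A1, 5′ UTR, chr2:189580660-189580689, minus strand: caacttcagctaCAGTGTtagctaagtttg
TFRC, 3′ UTR, chr3:196050978-196051007, minus strand: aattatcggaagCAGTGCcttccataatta
TFRC, 3′ UTR, chr3:196050574-196050603, minus strand: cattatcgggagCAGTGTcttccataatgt
TFRC, 3′ UTR, chr3:196050509-196050538, minus strand: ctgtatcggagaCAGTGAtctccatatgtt
TFRC, 3′ UTR, chr3:196050462-196050491, minus strand: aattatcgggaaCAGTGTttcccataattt
SLC11A2, 3′ UTR, chr12:50988268-50988297, minus strand: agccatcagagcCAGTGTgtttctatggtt

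The storage and export genes thus carry the match before the coding sequence, and TFRC and SLC11A2 carry it after. The stems of FTH1, FTL, SLC40A1 and TFRC were fully paired, whereas that of SLC11A2 has 1 unpaired base. Not all transcripts of a gene hold the element: it was in 7 of 8 protein-coding transcripts of FTH1, 1 of 1 of FTL, 1 of 5 of SLC40A1, 3 of 4 of TFRC and 5 of 18 of SLC11A2, and the gene-level counts do not separate these forms. A weaker match with 1 unpaired base lay in the 3′ UTR of 1 of 4 transcripts of IREB2, and none was found in the UTRs of ACO1, NCOA4 and STEAP3. Such matches are not common but are not specific to iron genes, since 99 of 18790 protein-coding genes hold one in a 5′ UTR (0.527%) and 352 of 19082 in a 3′ UTR (1.84%). A match describes these letters and is not proof of a working site.

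Before the results, some facts of the libraries bear on them. Control libraries held 19343565 to 27823667 counts on genes and fluoxetine libraries 16157507 to 17113538, so every treated library was shallower, and 3 counts were worth 0.108 to 0.186 CPM (the counts of a gene scaled to a fixed library size). The counting program was named without its strand setting, so reads of a gene and of a partner on the opposite strand cannot be told apart. Control replicate 3 stood apart from the other controls. Its deviation from the mean over all libraries of both groups fell with the GC content of genes (r = -0.41 across genes). In control replicates 1 and 2 the correlation was 0.27 and 0.33. Among the treated libraries the same correlation was -0.079, 0.16 and -0.28 in fluoxetine replicates 1, 2 and 3. The counts of calls are therefore also given without control replicate 3. The 5 epithelial markers were divided: the keratins KRT8, KRT18 and KRT19 were detected, whereas EPCAM and CDH1 stayed under 1 CPM in every library. The summed level of the 5 was 3057 to 4027 CPM in control and 2689 to 3264 CPM in fluoxetine libraries. KRT18 fell by 0.72 on the log2 scale (edgeR adjusted p = 0.00162), and its part in the results was not tested, while EPCAM stayed at 0.22 to 0.57 CPM and CDH1 at no more than 0.061 CPM. Of 8 markers of other cell types, 7 were under 1 CPM in every library, COL1A1 reached 3.21 to 5.35 CPM, and the sum was 3.53 to 6.04 CPM in control and 3.67 to 5.22 CPM in fluoxetine libraries.

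Fluoxetine raised 3 of the 9 transcripts by modest amounts and lowered none. These were ACO1, FTL and SLC11A2, which rose 1.35-fold, 1.29-fold and 1.23-fold. Of all 15646 genes tested, 7.76% were called higher and 5.32% lower (edgeR quasi-likelihood test, Benjamini-Hochberg adjusted p under 0.05). No member reached a 2-fold change, which 1.39% of the tested genes did. The libraries of the 2 groups did not overlap for 4 of the 9 members (the 3 that rose, and STEAP3, which lay lower), beside 31.9% of all tested genes. The median log2 fold change was 0.17 over the 9 members and 0.033 over all tested genes. The number of calls was 3 again without control replicate 3 or by DESeq2, and the same 3 genes passed an unadjusted p under 0.05. It was 0 without control replicate 2, without fluoxetine replicate 1 and without fluoxetine replicate 3. It was 1 (ACO1) without fluoxetine replicate 2, and 2 (FTL and ACO1) without control replicate 1. The share of all genes called was counted for the reported fit only, so the numbers of calls in other fits have no background beside them.

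**Figure D1:**
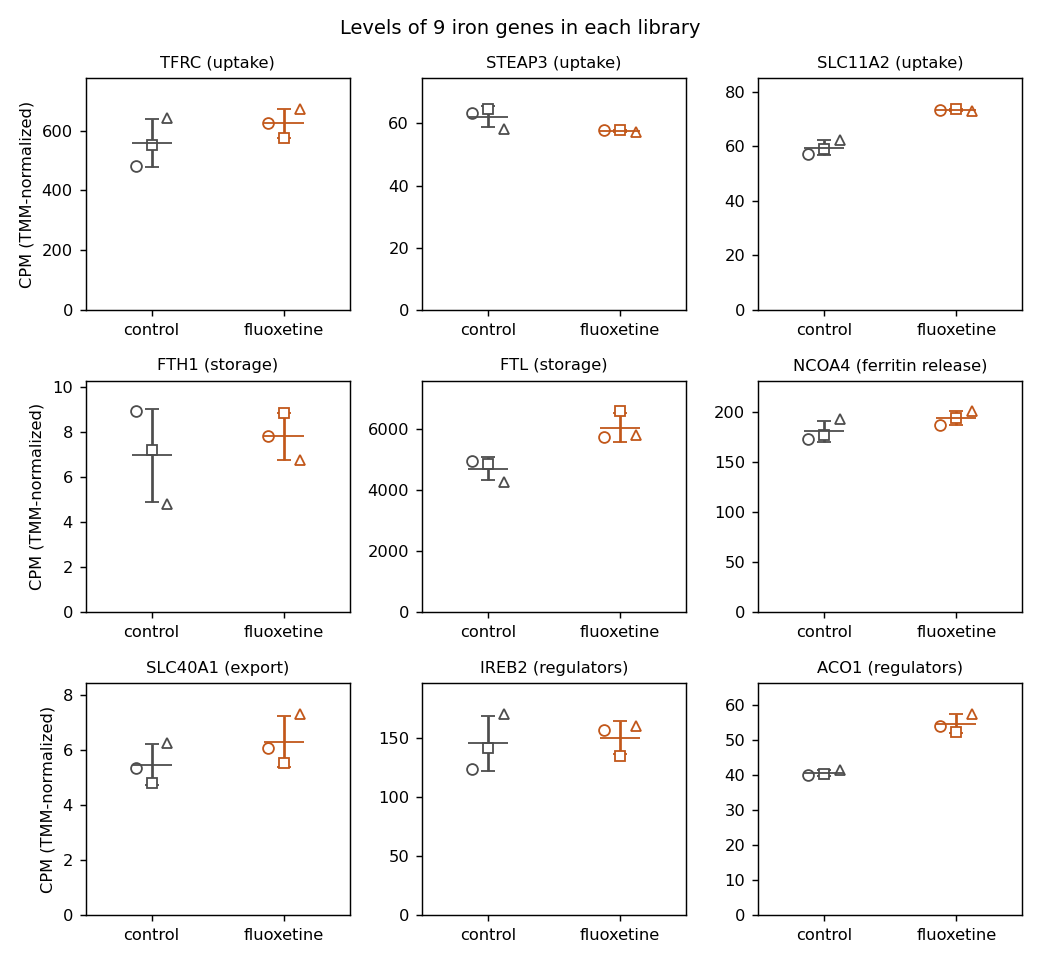
Level of each of the 9 genes in the 6 libraries, in TMM-normalized CPM with each axis starting at 0. Circles, squares and triangles are replicates 1, 2 and 3, bars are the mean and SD over 3 libraries. The groups are separate for SLC11A2, FTL and ACO1 (fluoxetine higher) and for STEAP3 (fluoxetine lower), and they overlap for the other 5 genes.

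**Figure D2:**
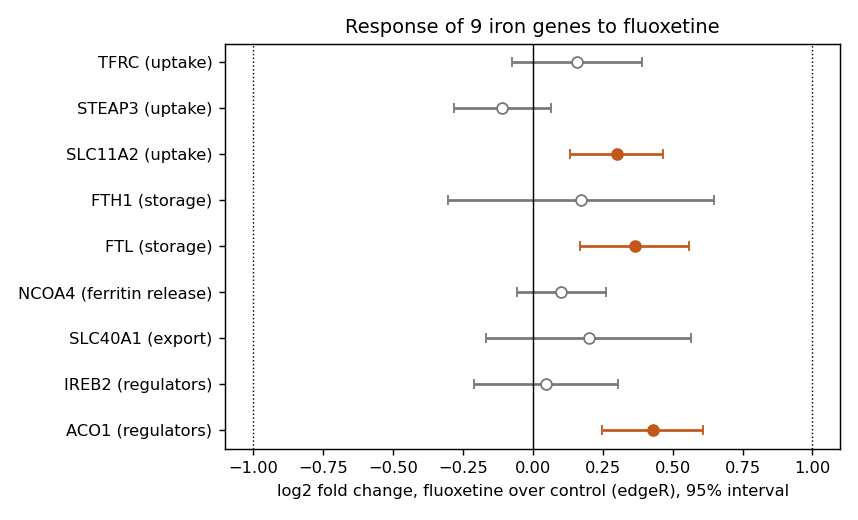
Log2 fold change of fluoxetine over control for the 9 genes with its 95% interval, from edgeR on 3 against 3 libraries. Filled points have an adjusted p under 0.05 and dotted lines mark a 2-fold change. All intervals lie inside the dotted lines, and those of SLC11A2, FTL and ACO1 lie above 0.

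In control cells the levels of the 9 transcripts spanned a wide range. Per kilobase of summed exon length FTL stood far above the rest, at 5364 CPM per kb (4865 to 5671 over 3 libraries). TFRC followed at 70.9 CPM per kb (61.0 to 81.4) and NCOA4 at 44.3 CPM per kb (42.4 to 47.2). STEAP3, at 13.6 CPM per kb (12.8 to 14.2), and IREB2, at 13.5 CPM per kb (11.5 to 15.8), could not be ordered, because their libraries overlap. SLC11A2 stood at 5.86 CPM per kb (5.64 to 6.14), above ACO1 at 5.36 CPM per kb (5.30 to 5.49) in the control libraries. With fluoxetine this pair came level, both with a mean of 7.22 CPM per kb. At the bottom were FTH1, at 3.44 CPM per kb (2.38 to 4.40), and the exporter SLC40A1, at 1.26 CPM per kb (1.11 to 1.45). The place of FTH1 in this order is not firm, because its count is uncertain. Of the windows of 50 bases in its coding sequence 77.8% recur in other genes, and its 17 pseudogene rows together held more counts in every library. The exon lengths sum the exons of all transcripts, so a gene with a long sum, such as IREB2 with 10806 bases, is placed lower than a compact gene such as FTL with 878 bases.

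Among the uptake genes, the importer of the endosome rose while the receptor did not pass the test. The difference between these genes was not tested. TFRC (chr3:196027183-196082189, minus strand), which brings transferrin into the cell, was at 481, 553 and 642 CPM in the control libraries and at 625, 575 and 674 CPM in the fluoxetine libraries. The groups overlap, since control replicate 3 lay above 2 of the 3 treated libraries. The log2 fold change of TFRC was 0.16 ± 0.10 (SE, n = 3 per group, 95% interval -0.073 to 0.39, edgeR adjusted p = 0.359). That interval leaves room for a rise of up to 1.31-fold. TFRC was lowest in control replicate 1 and highest in control replicate 3 among the controls, and its log2 fold change was 0.032 once the trends of GC content and exon length were removed from each library.

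SLC11A2 (chr12:50979401-51028566, minus strand), the iron transporter of the endosomal membrane, was at 57.2, 58.9 and 62.3 CPM in control cells. It was at 73.2, 73.8 and 72.8 CPM with fluoxetine. All 3 treated libraries exceeded all 3 control libraries, and the treated libraries were close together, with a coefficient of variation of 0.662%. The rise of SLC11A2 was 0.30 ± 0.075 on the log2 scale (SE, n = 3 per group, 95% interval 0.13 to 0.47, edgeR adjusted p = 0.0262). This call was the least firm of the 3. It held without control replicate 3 (adjusted p = 0.0171) and was lost when any of the other 5 libraries was left out, with adjusted p up to 0.165. It was also lost with no filter on low counts (adjusted p = 0.0869) and with GC content and length trends removed, where the log2 fold change was 0.14 (adjusted p = 0.148).

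STEAP3 (chr2:119223831-119265652, plus strand), the reductase that prepares endosomal iron for SLC11A2, was at 63.3, 64.7 and 58.3 CPM in control cells. It was at 57.8, 57.8 and 57.1 CPM with fluoxetine. Every treated library lay below every control library, but the nearest pair was control replicate 3 and fluoxetine replicate 1, which are only a small step apart. STEAP3 had a log2 fold change of -0.11 ± 0.078 (SE, n = 3 per group, 95% interval -0.28 to 0.064, edgeR adjusted p = 0.407), so the difference did not pass the test. An antisense transcript, STEAP3-AS1, shares 500 exonic bases with it and had a mean of 5.17 counts, against 1193 counts for STEAP3.

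Of the ferritin chains, the light chain rose and the heavy chain was poorly measured. FTL (chr19:48965301-48966878, plus strand) was among the most abundant transcripts of these cells, ranking at 11 of all genes by control CPM. It was at 4979, 4878 and 4272 CPM in control cells, and at 5763, 6602 and 5818 CPM with fluoxetine. The groups did not overlap, with control replicate 3 the lowest and fluoxetine replicate 2 the highest library. FTL alone took 0.426% to 0.489% of all counts in control libraries and 0.584% to 0.657% in fluoxetine libraries. Its log2 fold change was 0.36 ± 0.088 (SE, n = 3 per group, 95% interval 0.17 to 0.56, edgeR adjusted p = 0.0230). The rise was larger, 0.42, with GC content and length trends removed (adjusted p = 5.98e-04). The call held without control replicate 1 or 3, and was lost without control replicate 2 or without any of the fluoxetine replicates 1, 2 and 3, with adjusted p up to 0.0927.

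FTH1 (chr11:61959718-61967660, minus strand) encodes the heavy chain, whose ferroxidase activity lets iron enter the shell. It received only 197, 138 and 134 counts in the control libraries and 129, 149 and 116 counts in the fluoxetine libraries. In CPM these are 8.94, 7.19 and 4.83 for control and 7.83, 8.86 and 6.75 for fluoxetine. The groups overlap throughout. Its log2 fold change was 0.17 ± 0.21 (SE, n = 3 per group, 95% interval -0.30 to 0.65, edgeR adjusted p = 0.628), the widest interval of the 9 genes. It changed sign, to -0.082, when control replicate 3 was left out.

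The count of FTH1 is uncertain, and its coding sequence has many near copies. Of all windows of 50 bases along the FTH1 coding sequence, 77.8% also occur letter for letter in transcripts of other genes, and 14 other genes hold a copy of at least 85% identity over at least 80% of its length (up to 97.5%, in FTH1P8). For FTL these values were 31.9% of windows and 2 near copies, and for NCOA4 10.2% of windows and 2 near copies, whereas the other 6 members had no shared window. The 17 rows of FTH1 pseudogenes together held 168 to 278 counts a library, more than FTH1 itself in every library, and FTH1P7 alone held 96 to 179. The 6 rows of FTL pseudogenes held 15 to 35 counts. FTH1 also shares 1267 exonic bases with BEST1 on the opposite strand, which had a mean of 4.17 counts. How the counting treated reads that align to several places, or that lie on both FTH1 and BEST1, is not given in the sources used here. The part of the copies and of the overlap with BEST1 in the low FTH1 count was not tested. With the pseudogene rows added to their parents, the 3 calls were SLC11A2, FTL and ACO1 as before.

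**Figure D3:**
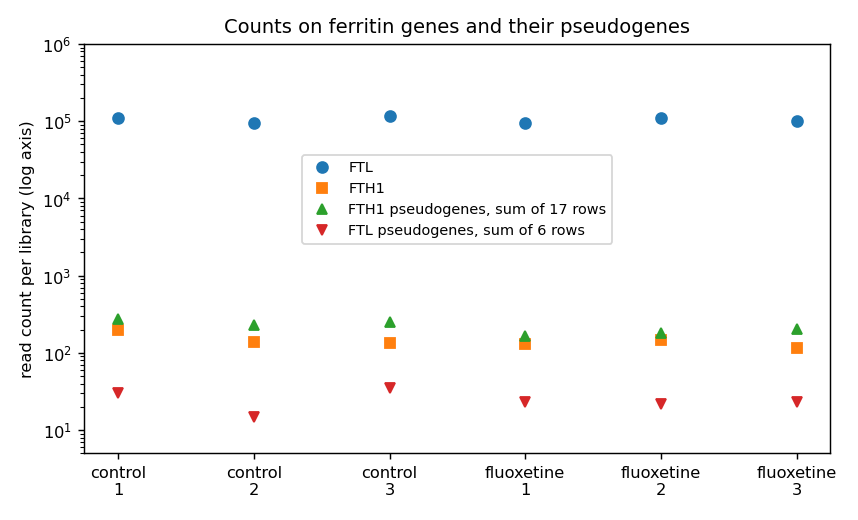
Read counts per library on FTL, FTH1 and the summed rows of their pseudogenes, on a log axis. FTL lies between 93637 and 118582 counts, FTH1 between 116 and 197, below the sum of its 17 pseudogene rows in each library.

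NCOA4 (chr10:46005088-46030714, minus strand), the receptor that takes ferritin to the lysosome for breakdown, was at 173, 177 and 192 CPM in control cells. It was at 187, 194 and 201 CPM with fluoxetine. The groups overlap by 1 library, control replicate 3. NCOA4 had a log2 fold change of 0.10 ± 0.072 (SE, n = 3 per group, 95% interval -0.056 to 0.26, edgeR adjusted p = 0.394). A rise of more than 1.20-fold lies outside this interval.

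SLC40A1 (chr2:189560579-189583758, minus strand), the iron exporter, had the lowest mean CPM of the 9 genes in both groups, and ranked at 11018 of all genes by control CPM. It had 118, 92 and 174 counts in control libraries and 100, 93 and 126 counts in fluoxetine libraries. In CPM it was at 5.35, 4.79 and 6.27 in control cells and at 6.07, 5.53 and 7.34 with fluoxetine, which overlap. For SLC40A1 the log2 fold change was 0.20 ± 0.17 (SE, n = 3 per group, 95% interval -0.17 to 0.57, edgeR adjusted p = 0.485). At this depth a rise of up to 1.48-fold or a fall to 0.89 of the control level could not be told from no change.

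The iron regulatory proteins gave different values at the transcript level. ACO1 (chr9:32384603-32454769, plus strand) encodes iron regulatory protein 1, which is a cytosolic aconitase when it holds an iron-sulfur cluster and binds RNA when it does not. It was at 40.0, 40.1 and 41.5 CPM in control cells and at 53.9, 52.3 and 57.5 CPM with fluoxetine. The groups were well apart, and the control libraries were close together, at 40.5 ± 0.812 CPM (SD, n = 3). ACO1 rose by 0.43 ± 0.081 on the log2 scale (SE, n = 3 per group, 95% interval 0.25 to 0.61, edgeR adjusted p = 0.00785). With GC content and length trends removed it was 0.32 (adjusted p = 0.00412), below that of FTL in the same fit. The call held without control replicate 1, control replicate 3 or fluoxetine replicate 2. It was lost without control replicate 2, fluoxetine replicate 1 or fluoxetine replicate 3, with adjusted p up to 0.0669.

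IREB2 (chr15:78437431-78501456, plus strand) encodes iron regulatory protein 2, which is removed by the proteasome when iron is plentiful. It was at 124, 142 and 171 CPM in control cells and at 157, 134 and 160 CPM with fluoxetine. The groups overlap, and control replicate 3 was the highest library of all. IREB2 had a log2 fold change of 0.048 ± 0.12 (SE, n = 3 per group, 95% interval -0.21 to 0.30, edgeR adjusted p = 0.825). IREB2 had the lowest GC content of the 9 genes, at 38.3%, and its log2 fold change was -0.13 with GC content and length trends removed (adjusted p = 0.167), so its direction differed between the fits.

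Ratios within a library do not depend on the scaling between libraries. A GC content trend need not cancel in them, since IREB2 (38.3% GC) differs from ACO1 (45.7%), and TFRC (41.5%) from FTL (56.3%). Control replicate 3 had the highest control value of the ratios of IREB2 to ACO1 and of TFRC to FTL. The part of the trend was not tested, as no ratio was computed with GC content and length trends removed. The log2 ratio of IREB2 to ACO1 counts was 1.63, 1.82 and 2.04 in control libraries and 1.54, 1.36 and 1.48 in fluoxetine libraries. All treated libraries were lower, and the difference of the means was -0.37 (exact permutation test, two-sided, p = 0.1, the smallest p that 3 against 3 libraries can give). The log2 ratio of TFRC to FTH1 counts, uptake against storage, was 6.36 ± 0.66 in control and 6.33 ± 0.31 in fluoxetine libraries (SD, n = 3 each, exact permutation p = 1). The log2 ratio of FTH1 to FTL counts was -9.44 ± 0.33 and -9.60 ± 0.13 (SD, n = 3 each, exact permutation p = 0.5). Since both ratios with FTH1 rest on few counts, TFRC was also set against FTL, a choice made after seeing the data: the log2 ratio was -3.08 ± 0.32 and -3.28 ± 0.22 (SD, n = 3 each, exact permutation p = 0.5). None of these 4 ratios could have passed 0.05 in this design. Adjustment over 4 comparisons does not alter that.

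**Figure D4:**
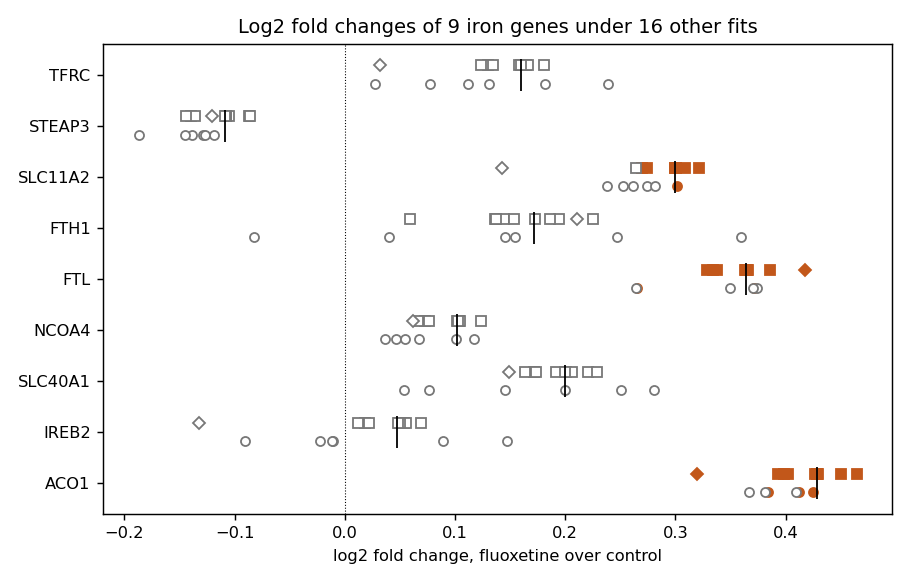
Log2 fold change of each gene under 16 other fits. Circles leave out 1 library each, squares are other tests, filters, scalings, the replicate block, thinning and added pseudogene rows, diamonds remove the GC content and length trends, the vertical tick is the reported value, and filled symbols have an adjusted p under 0.05. FTL and ACO1 are filled at all squares and diamonds, and no gene is filled at all circles.

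The wider iron and heme pathway was described with 97 other genes in 8 lists, of which 95 were in the table and 84 were tested. Of these 84, 8 were called higher and 2 lower, and the median log2 fold change was -0.00023. Of all 15646 tested genes, 7.76% were called higher and 5.32% lower, and the same shares apply to the counts of each list below. The split was 8 higher and 4 lower with RLE scaling in place of TMM, and 8 higher and 6 lower by DESeq2. Without control replicate 3 it was 10 higher and 16 lower, and when any other single library was left out between 4 and 12 genes were called in all. The share of all genes called was not counted for any fit but the reported one, so counts in the other fits have no background beside them. FLVCR2 was the only gene of these lists with a called change of at least 2-fold.

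In the list for uptake and transport, 3 of 9 tested genes were called higher and none lower, with a median log2 fold change of 0.087. Without control replicate 3 or without fluoxetine replicate 2 the counts were 2 higher and 1 lower, and the lower gene, SLC25A28 (a relative of SLC25A37), was also called lower by DESeq2, with RLE scaling and with GC content and length trends removed, where the median was -0.0032. MCOLN1, a lysosomal channel that lets iron and calcium out of the lysosome, was at 14.9, 16.8 and 13.0 CPM in control cells and at 27.2, 26.4 and 23.5 CPM with fluoxetine. Its log2 fold change was 0.79 ± 0.12 (SE, edgeR adjusted p = 0.00249), and it was called in all 16 other fits. HFE, which binds the transferrin receptor, had a log2 fold change of 0.34 (edgeR adjusted p = 0.0372), and SLC25A37, the mitochondrial iron importer mitoferrin-1, had 0.28 (edgeR adjusted p = 0.0311). The call of HFE was lost in all 6 fits that left out a library, by DESeq2, with no filter on low counts and after thinning to equal depth. That of SLC25A37 was lost in 4 of the fits that left out a library (without control replicate 1 or 2, or fluoxetine replicate 1 or 3) and with no filter on low counts. No gene was called among 4 tested genes for storage and iron chaperones (median log2 fold change -0.070) or among 3 for export and the hepcidin axis (median 0.087). These counts depended on the fit. The iron chaperones PCBP2 and GLRX3 were called lower without control replicate 3 (list median -0.21), without fluoxetine replicate 2 (-0.19) and with GC content and length trends removed (-0.18), and PCBP2 by DESeq2. CP, the ferroxidase ceruloplasmin, was called higher without control replicate 3. The genes named here for such calls were chosen after their values were seen, as were CDC42BPA, SLC7A11, AIFM2, LPCAT3 and POR.

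Among the genes that control the iron regulatory proteins or carry further iron-responsive elements, 1 of 5 tested genes was called, EPAS1. EPAS1 encodes the hypoxia-inducible factor 2α, and its 5′ UTR holds a match to the same stem-loop with 1 unpaired base, shown for comparison with the members.
EPAS1, 5′ UTR, chr2:46297479-46297508, plus strand: tacaatcctcggCAGTGTcctgagactgta
EPAS1 was at 47.0, 47.9 and 45.4 CPM in control cells and at 92.2, 87.5 and 82.4 CPM with fluoxetine. Its log2 fold change was 0.90 ± 0.079 (SE, edgeR adjusted p = 7.0e-05), a rise of 1.87-fold, and it was called in all 16 other fits. All 5 tested genes of the list had a log2 fold change above 0, with a median of 0.15, and without control replicate 3 CDC42BPA was called higher as well, for 2 of 5.

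Among the heme genes, 3 of transport and breakdown were called and none of synthesis, and the difference between these lists was not tested. HMOX1, the heme oxygenase that frees iron from heme, was at 48.6, 45.8 and 39.3 CPM in control cells and at 81.0, 97.4 and 72.6 CPM with fluoxetine. The groups were far apart, and the log2 fold change was 0.91 ± 0.12 (SE, edgeR adjusted p = 0.00117), called in all 16 other fits. FLVCR1, a membrane transporter known as a heme exporter, rose by 0.47 on the log2 scale (edgeR adjusted p = 0.0118), a call lost without control replicate 1, control replicate 2 or fluoxetine replicate 1. Its relative FLVCR2 rose from 1.22, 0.57 and 0.76 CPM to 2.19, 2.20 and 2.79 CPM, by 1.48 ± 0.30 on the log2 scale (SE, edgeR adjusted p = 0.0114). That call was lost only without control replicate 2 (adjusted p = 0.0559), and the gene is low in both groups. The list of heme transport and breakdown had 3 of 9 tested genes higher, none lower and a median log2 fold change of 0.049, while none of 13 tested heme synthesis genes was called, with a median of -0.060. Without control replicate 3 there were again 3 genes called higher in the first list and none in synthesis. Without control replicate 2 only HMOX1 was called in transport and breakdown.

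The iron-sulfur cluster assembly genes, which build the cofactor that ACO1 holds, were mostly below 0 but rarely passed the test in the reported fit. Of 26 tested genes, 21 had a log2 fold change below 0, beside 45.8% of all tested genes, and the median was -0.18. The only call was HSPA9, the mitochondrial chaperone of the assembly machinery, at 1476, 1393 and 1417 CPM in control cells and 1184, 1241 and 1245 CPM with fluoxetine. Its log2 fold change was -0.22 ± 0.066 (SE, edgeR adjusted p = 0.0492), and the call was lost without control replicate 1 or 2, without fluoxetine replicate 1 or 3, with a stricter count filter and after thinning to equal depth. Without control replicate 3 the list had 11 genes called lower and a median of -0.28. With GC content and length trends removed it had 5 called lower and a median of -0.23. It had 10 called lower with the replicate number as a block and 8 with no filter on low counts. None was called without control replicate 1 or 2 or without fluoxetine replicate 1 or 3. The share of all genes called in these fits was not counted, so these counts cannot be read as particular to this list.

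Genes of iron-dependent lipid peroxidation and its defence gave a call in each direction among 15 tested, with a median log2 fold change of 0.14. Without control replicate 3 the counts were 2 higher (ACSL4 and SLC7A11) and 2 lower (DHODH and AIFM2), and with GC content and length trends removed 3 higher (ACSL4, LPCAT3 and POR) and 2 lower (DHODH and AIFM2). ACSL4, which loads membrane lipids with the polyunsaturated fatty acids that are oxidized, was at 130, 143 and 164 CPM in control cells and at 229, 213 and 231 CPM with fluoxetine. Its log2 fold change was 0.62 ± 0.090 (SE, edgeR adjusted p = 0.00197), called in all 16 other fits. DHODH, a mitochondrial enzyme of pyrimidine synthesis that also reduces ubiquinone, fell by 0.40 on the log2 scale (edgeR adjusted p = 0.0413). That call remained in only 1 of the 6 fits that left out a library, the fit without control replicate 3. It was also lost by limma-voom and with library size only. In bulk RNA, fewer cells of a kind and less RNA per cell cannot be told apart for any of these genes.

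**Figure D5:**
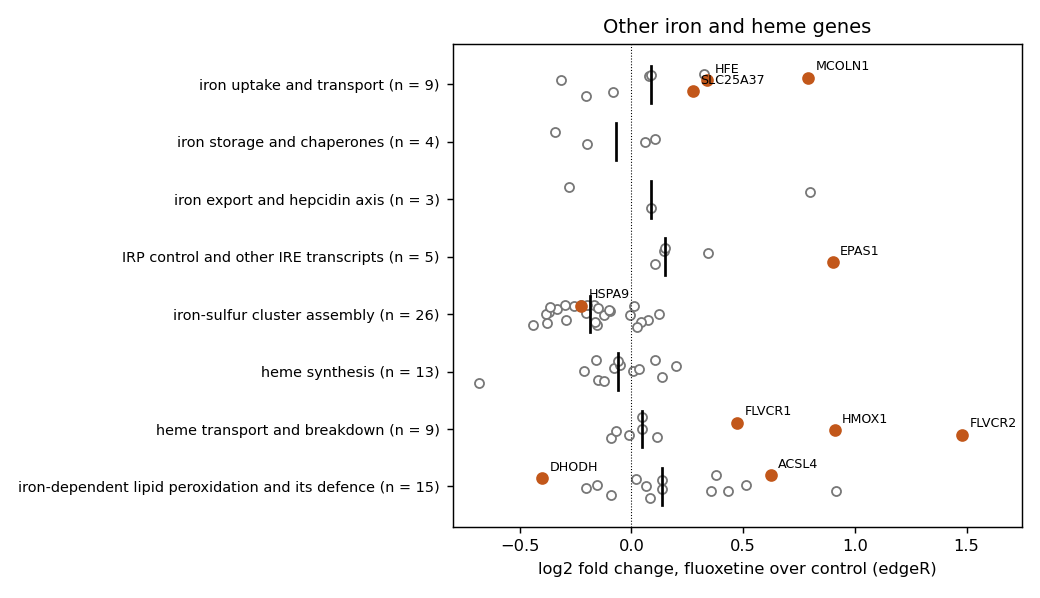
Log2 fold change of the 84 other tested iron and heme genes by list, with vertical offsets only to separate points. Filled points have an adjusted p under 0.05 and are named, and black ticks are the median of each list. The iron-sulfur cluster list lies mostly to the left of 0, and the points farthest right among the called genes are FLVCR2, HMOX1 and EPAS1.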

How the data were processed

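The authors deposited 1 table with the raw read count of each gene in each library, without normalization or pooling. According to the submitters' processing notes, fastp 0.20.0, HISAT2 2.1.0, HTSeq 0.10.0 and DESeq2 1.18.1 were used. The strand setting, the treatment of multi-mapped reads and the genome build are not given in the sources used here. Gene positions fit GRCh38: 31635 genes were found in GENCODE release 29, 96.8% with the same start and end. The table also holds the authors' own comparison (fold changes on the log2 scale with raw and adjusted p-values), which was not used. Groups and replicate numbers came from the sample labels.

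The test was the quasi-likelihood test of edgeR 4.0.16 (R 4.3.3, glmQLFit and glmQLFTest, trended dispersion, TMM, no covariate). filterByExpr kept 15646 genes, p-values were adjusted over them by Benjamini-Hochberg, and a gene was called at an adjusted p under 0.05. CPM values are TMM-normalized, with SD over 3 libraries. A floor of 3 counts covers counting error only. Alternatives were DESeq2 1.42.0, limma-voom (limma 3.58.1), RLE or library-size scaling, no filter or a minimum of 10 counts in all libraries, a block for the replicate number, each library left out, thinning to the smallest library, and added pseudogene rows. Removal of GC content and exon length trends (known for 99.7% of tested genes), the ratio of TFRC to FTL and the unadjusted p were added after seeing the data. Ratios were tested by exact permutation over libraries. Near copies were sought with blastn. The edgeR fit was tested on simulated counts, where 177 of 200 planted changes and 9 other genes were called. All planted changes were larger than those of the called members, so the recovery of changes of that size was not tested. No GC content trend was simulated.

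The 9 members and the lists of other genes were chosen with earlier results of these data known. All members were named, with up to 4 called genes of each list by smallest p, genes that overlap a member, and the closest copies. Of the listed genes, 2 iron genes and 3 cell type markers are not reported here.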

Additional observations from a re-analysis of the deposited data

How the results depend on the processing

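The number of the 9 genes called was 3 by DESeq2, limma-voom, RLE scaling, library size only, at least 10 counts in every library, thinning to equal depth, added pseudogene rows and an unadjusted p. It was 2 with no filter on low counts and with GC content and length trends removed, 0 at a fold change of at least 2, and 0 to 3 when 1 library was left out (0 without control replicate 2, fluoxetine replicate 1 or fluoxetine replicate 3, and 1 without fluoxetine replicate 2). Other iron genes called numbered 10 as reported, 20 with no filter and 21 with GC content and length trends removed. The range over left-out libraries was 4 to 26, with 26 without control replicate 3. The share of all genes called in each of these fits was not counted. STEAP3, NCOA4, SLC40A1 and TFRC kept their direction in all 16 other fits and were called in none. The direction of IREB2 was reversed with GC content and length trends removed (-0.13) and when control replicate 1 (-0.090), control replicate 2 (-0.011), fluoxetine replicate 1 (-0.012) or fluoxetine replicate 3 (-0.023) was left out, and over left-out libraries it ranged from -0.090 to 0.15. FTH1 ranged from -0.082, without control replicate 3, to 0.36. The log2 ratio of TFRC to FTH1 counts had a difference of -0.032, which became 0.088 with pseudogene rows added and ran from -0.34 to 0.32 over left-out libraries, with 0.12 without fluoxetine replicate 2. The other 3 ratios kept their sign over left-out libraries, as did FTH1 to FTL with pseudogene rows added. No ratio was computed with GC content and length trends removed. Apart from the changes that follow from fewer libraries or genes in the fit, the cause was not tested. FTH1 and SLC40A1 had the fewest counts of the 9 genes.

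Replicate numbers are shared by the groups, and these data do not settle whether they pair the libraries. Same-numbered libraries deviated together with r = 0.030, 0.12 and 0.39 across genes. For different numbers r ran from -0.38 (control replicate 3 with fluoxetine replicate 2) to 0.32 (control replicate 1 with fluoxetine replicate 2). With the replicate number as a block, the same 3 of the 9 genes were called, and 26 other iron genes in place of 10 (13 higher and 13 lower). The share of all genes called under the block was not counted. The differences in the ratios are the same under the block by construction, so this is no further check on them. For IREB2 to ACO1 the exact sign-flip permutation p was 0.25, the smallest that 3 pairs can give.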
